A study of Mus musculus with 6 samples.

Results

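The genes described here encode the enzymes that build, transfer and trim N-linked glycans in the endoplasmic reticulum (ER). They were chosen by name as a pathway, with earlier results of these data known. Each was read from the probe set with the highest mean among those that the array's annotation gives to its symbol alone. All 37 were measured, each by 1 probe set, out of 22180 genes. Liver RNA came from 6 male mice, 1 array each: 3 of the substrain Balb/c, which the series calls WT, and 3 of the substrain Balb/cBy, which it calls KD without naming a gene in the labels. Every mouse, controls included, was put on a high-fat diet at 8 weeks of age, stayed on it for 12 weeks and was 20 weeks old at sampling. Fat supplied 58% of the energy of that diet. No chow-fed group was analysed here, so each difference below is one between substrains on this diet. According to the labels, replicates are biological, 3 in each group, so p-values measure the spread between these mice.

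N-glycosylation is the attachment of a preassembled sugar tree to asparagine residues of proteins entering the ER. The tree is built on the lipid dolichol, first on the cytosolic face of the ER membrane and then, after it is flipped, on the lumenal face. The oligosaccharyltransferase complex moves it to the protein, and glucosidases, a mannosidase and a folding sensor then trim and re-mark it as the protein folds. Hepatocytes secrete most plasma proteins, and many of these are N-glycosylated.

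Levels are log2 values as deposited, and each difference is Balb/cBy minus Balb/c on that scale, with the standard error (SE) and p of limma's moderated test. The 6 arrays had medians from 7.98 to 8.03, and their correlations across genes were 0.977 to 0.990 within groups and 0.977 to 0.991 between them. The limma array weights were lowest for Balb/cBy replicate 1 (0.471) and Balb/c replicate 3 (0.635). Hepatocyte markers averaged 13.34 to 13.43 in Balb/c and 13.31 to 13.47 in Balb/cBy, with 0 of 8 markers at or under 8.01. That value is the 95th percentile over 1108 olfactory receptor probe sets, and a gene at or under it may not be told from background. Of the 37 genes, 34 had a mean over all 6 arrays above it, and Alg6, Alg13 and Dpm3 did not.

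Most genes of the pathway read somewhat higher in Balb/cBy liver. The difference was above 0 in 29 of 37 (78.4%), against 49.0% of all 23521 probe sets tested, and the median difference was 0.16, against 0.00 over all probe sets. The differences ran from -0.21 for Alg6 to 0.78 for Ostc. None passed limma's adjusted p of 0.05 (Benjamini-Hochberg over all probe sets tested), where 0% of probe sets passed, and the smallest adjusted p among the 37 was 0.419. The unadjusted p was under 0.05 for 10 genes (27.0%), all higher in Balb/cBy, against 2.64% of all probe sets that were higher and 1.18% that were lower. All 3 Balb/cBy arrays read above all 3 Balb/c arrays in 9 genes (24.3%), against 4.42% of probe sets, and all 3 read below in 0 genes, against 3.53%. The 9 include Alg2, whose nearest arrays were 0.00 apart to 2 decimals. In the other 28 genes the groups overlapped. The median within-group SD was 0.17 for these genes and 0.14 over all probe sets. Without Balb/c replicate 2 the count at an unadjusted p under 0.05 was 6, where 1.51% of all probe sets were higher at that p. The median was 0.09 when replicate 2 of either group was left out, and also with renewed quantile normalization.

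**Figure D1:**
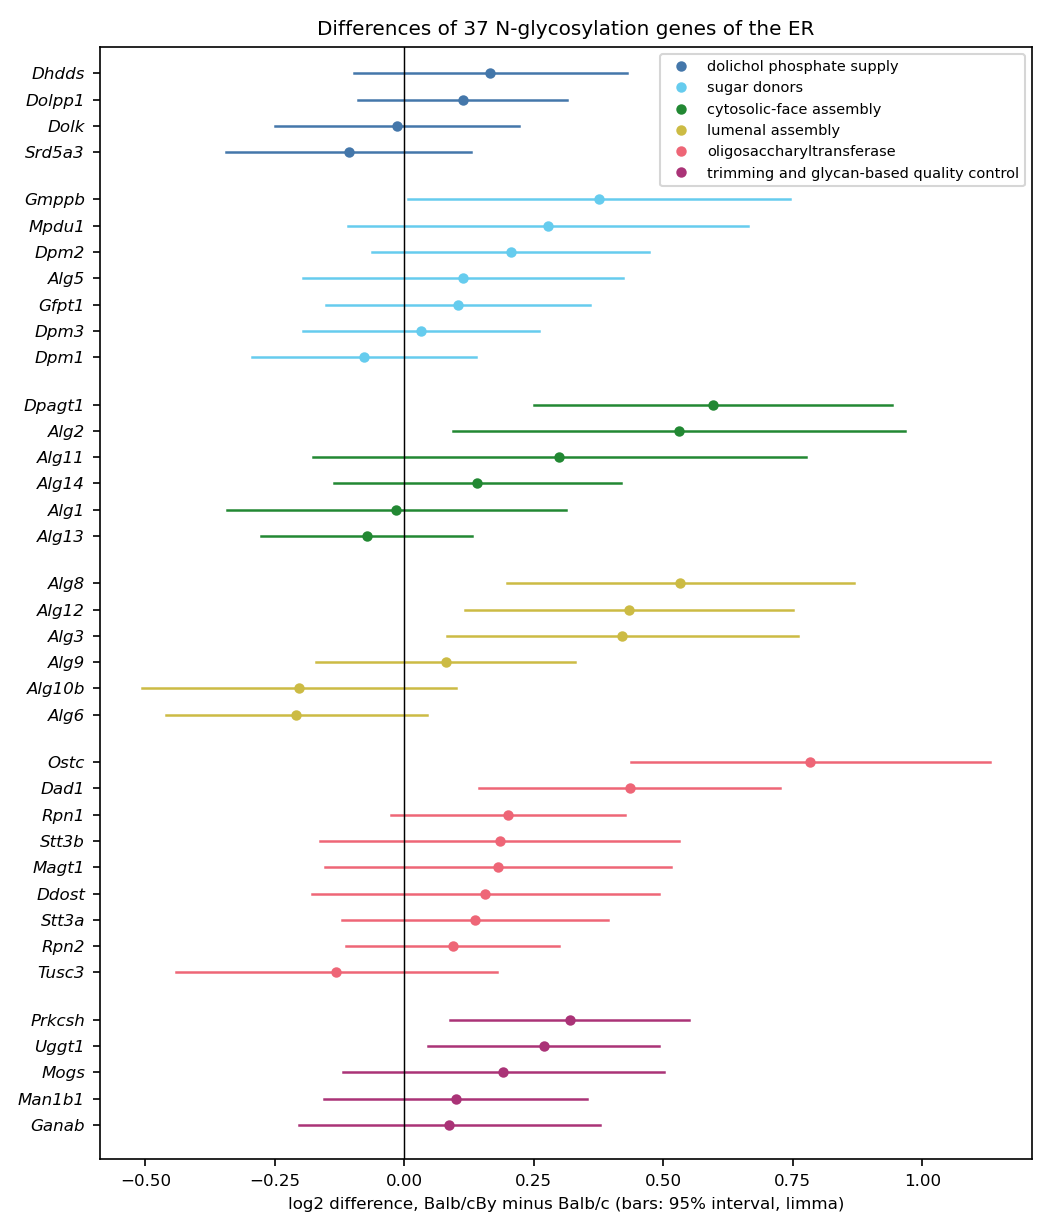
Difference between Balb/cBy and Balb/c for each of the 37 genes, ordered by role; points are log2 differences and bars are 95% intervals from limma on 3 against 3 arrays. The intervals of 10 genes lie wholly above 0, led by Ostc at 0.78, and none lies wholly below 0.

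The 10 genes at an unadjusted p under 0.05 were spread over 5 of the 6 roles. They were Gmppb among the sugar donors, Dpagt1 and Alg2 on the cytosolic face, Alg3, Alg8 and Alg12 in the lumen, Ostc and Dad1 in the oligosaccharyltransferase, and Prkcsh and Uggt1 in trimming and quality control. Dolichol phosphate supply had none. Of the 10, Dpagt1, Alg12, Alg8, Dad1, Ostc and Prkcsh kept an unadjusted p under 0.05 whichever array was left out.

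Dolichol phosphate supply, the making and recycling of the lipid carrier, differed least of the roles by median, at 0.05, with 2 of 4 genes higher. The groups overlapped in all 4, as they did in 21652 of all 23521 probe sets. Dhdds, the catalytic subunit of the prenyltransferase that makes the dolichol precursor, differed by 0.17 ± 0.11 (SE). Srd5a3, a reductase of the last steps to dolichol, differed by -0.11 ± 0.10 (SE). Dolk, the kinase that phosphorylates dolichol, read 9.25, 9.22 and 9.13 on Balb/c replicates 1 to 3 and 9.03, 9.26 and 9.27 on Balb/cBy replicates 1 to 3. Its difference was -0.01 ± 0.10 (SE, 95% interval -0.25 to 0.22), with the lowest reading on Balb/cBy replicate 1 and the highest on Balb/cBy replicate 3. Dolpp1, the phosphatase that recycles dolichol pyrophosphate, differed by 0.11 ± 0.09 (SE).

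Sugar donor genes differed by a median of 0.11, with 6 of 7 higher. The groups overlapped in all 7, as they did in 21652 of all 23521 probe sets. Gmppb, which makes GDP-mannose, had the smallest p among the 7. It read 7.94, 7.92 and 7.68 in Balb/c and 7.92, 8.53 and 8.22 in Balb/cBy. Balb/cBy replicates 2 and 3 were above every Balb/c array, and Balb/cBy replicate 1 was within the Balb/c range. The difference was 0.38 ± 0.16 (SE, unadjusted p = 0.0465, adjusted p = 0.999 by limma), 0.22 without Balb/cBy replicate 2, from a Balb/c mean of 7.85 that lies under the olfactory receptor level. Mpdu1, a membrane protein needed to use the dolichol-linked sugars, read 11.05, 10.86 and 10.97 in Balb/c and 10.85, 11.53 and 11.32 in Balb/cBy. Balb/cBy replicates 2 and 3 were again the highest arrays, and Balb/cBy replicate 1 was the lowest. It differed by 0.28 ± 0.17 (SE), and by 0.13 without Balb/cBy replicate 2. Gfpt1, which opens the hexosamine pathway to UDP-GlcNAc, differed by 0.10 ± 0.11 (SE).

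No subunit of the synthase of dolichol phosphate mannose had an unadjusted p under 0.05. Dpm1, the catalytic subunit, differed by -0.08 ± 0.09 (SE, 95% interval -0.29 to 0.14). Its membrane partners Dpm2 and Dpm3 differed by 0.20 ± 0.12 and 0.03 ± 0.10 (SE), and Dpm3 was under the olfactory receptor level. Alg5, which makes dolichol phosphate glucose, differed by 0.11 ± 0.13 (SE).

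Assembly on the cytosolic face showed its largest differences in the enzyme that starts the tree and in a mannosyltransferase, with a median of 0.22 and 4 of 6 genes higher. Dpagt1 transfers the first sugar phosphate to dolichol phosphate and is the enzyme that tunicamycin blocks. It read 10.12, 9.59 and 9.83 in Balb/c (mean 9.85 ± 0.27, SD, n = 3) and 10.44, 10.59 and 10.29 in Balb/cBy (10.44 ± 0.15, SD, n = 3). The groups did not overlap, with a gap of 0.17 between the highest Balb/c and the lowest Balb/cBy array. The difference was 0.60 ± 0.15 (SE), 1.51-fold, with an unadjusted p of 0.00397 and an adjusted p of 0.980 by limma.

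Alg2, which adds mannoses to the growing tree, read 8.61, 8.37 and 8.46 in Balb/c and 8.61, 9.42 and 9.0 in Balb/cBy. The groups met at 8.61 on replicate 1 of each, and the Balb/cBy arrays spread widely (SD 0.40 against 0.12). The difference of Alg2 was 0.53 ± 0.19 (SE, unadjusted p = 0.0229, adjusted p = 0.999 by limma), and 0.33 without Balb/cBy replicate 2. Alg11, which acts after Alg2, differed by 0.30 ± 0.21 (SE), and by 0.08 without Balb/c replicate 2, its lowest array at 8.53. Alg14 and Alg13, which together add the second GlcNAc, differed by 0.14 ± 0.12 and -0.07 ± 0.09 (SE), Alg13 from under the olfactory receptor level. Alg1, which adds the first mannose, differed by -0.02 ± 0.14 (SE, 95% interval -0.34 to 0.31).

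Assembly in the lumen divided by enzyme, with a median of 0.25: 4 of 6 genes were higher, and the glucosyltransferases Alg6 and Alg10b were lower. Alg8, which adds the second glucose, read 9.68, 9.36 and 9.52 in Balb/c (mean 9.52 ± 0.16, SD, n = 3) and 10.14, 10.25 and 9.77 in Balb/cBy (10.05 ± 0.25, SD, n = 3). Every Balb/cBy array was above every Balb/c array, the nearest pair being 0.09 apart. Its difference was 0.53 ± 0.15 (SE), 1.45-fold, with an unadjusted p of 0.00628 and an adjusted p of 0.999 by limma. Alg6, which adds the first glucose, read 8.13, 8.08 and 8.14 in Balb/c and 7.82, 8.11 and 7.80 in Balb/cBy. Balb/cBy replicate 2 lay within the Balb/c range and the other Balb/cBy arrays under it. The difference of Alg6 was -0.21 ± 0.11 (SE, unadjusted p = 0.0922), and -0.31 without Balb/cBy replicate 2. The Balb/c mean of 8.12 was above the olfactory receptor level and the Balb/cBy mean of 7.91 under it. Alg10b, which adds the terminal glucose, differed by -0.20 ± 0.13 (SE), and by -0.06 without Balb/c replicate 3, its highest array at 10.05.

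The lumenal mannosyltransferases were all higher in Balb/cBy by their means. Alg3, which adds the first lumenal mannose, read 11.05, 10.73 and 10.67 in Balb/c and 11.34, 11.39 and 10.99 in Balb/cBy. The groups overlapped, because Balb/cBy replicate 3 lay under Balb/c replicate 1. The difference of Alg3 was 0.42 ± 0.15 (SE, unadjusted p = 0.0209, adjusted p = 0.999 by limma). Alg12, a later mannosyltransferase, read 9.20, 8.98 and 8.68 in Balb/c and 9.29, 9.46 and 9.41 in Balb/cBy. Its groups did not overlap, with 0.09 between Balb/c replicate 1 and Balb/cBy replicate 1. The difference of Alg12 was 0.43 ± 0.14 (SE, unadjusted p = 0.0133, adjusted p = 0.999 by limma), ranging from 0.30 without Balb/c replicate 3 to 0.56 without Balb/c replicate 1. Alg9, the mannosyltransferase that acts on either side of Alg12, differed by 0.08 ± 0.11 (SE).

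Alg12 is shown here with its promoter because it was the 1 gene of the pathway whose promoter held the ER stress element, a sequence bound by transcription factors of the unfolded protein response. The element was searched on both strands as CCAAT followed by CCACG with 9 bases between them, in the 300 bases from 250 before to 50 after each start in RefSeq (GRCm38.p6). Promoters were found for 31 of the 37 genes, 32 promoters in all; Alg2, Alg11, Dpagt1, Tusc3, Ostc and Gmppb were not among them. The element was in 1 of those 32, against 39 of all 32851 promoters (0.119%). The 250 bases before the Alg12 start, at chr15:88819319-88819568 on the minus strand, are given 5′ to 3′ with both boxes of the element in capitals.
Alg12: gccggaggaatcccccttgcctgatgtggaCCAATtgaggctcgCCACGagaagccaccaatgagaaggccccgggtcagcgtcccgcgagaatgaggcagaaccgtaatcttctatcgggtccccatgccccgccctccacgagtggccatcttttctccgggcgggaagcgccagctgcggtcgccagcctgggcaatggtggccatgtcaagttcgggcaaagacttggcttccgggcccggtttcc

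The element lies at chr15:88819520-88819538, 220 to 202 bases before the Alg12 start, and it is shared with a neighbour. Creld2, an ER protein of the stress response, starts 328 bases away on the opposite strand, so that the same bases lie 126 to 108 before its own start. Creld2 read 10.52, 10.53 and 10.64 in Balb/c and 12.11, 11.69 and 11.55 in Balb/cBy, a difference of 1.22 ± 0.15 (SE, adjusted p = 0.177 by limma). No Balb/cBy array of Creld2 came near the Balb/c arrays, while for Alg12 the nearest arrays were 0.09 apart. The shared element is set beside those of a chaperone, Hspa5, and a ubiquitin ligase, Syvn1. These hold the same boxes closer to their starts, 65 to 47 and 44 to 26 bases before them. So do Dnajc3 and Pdia6, at 105 to 87 and 98 to 80 bases. Their elements and those of Hsp90b1, Calr and Canx, genes with smaller differences given below, are not shown.
Alg12 and Creld2: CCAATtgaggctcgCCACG
Hspa5: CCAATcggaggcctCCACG
Syvn1: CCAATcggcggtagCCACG

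Of 17 promoters of ER stress genes, 6 held the element: those of Creld2, Dnajc3, Hsp90b1, Hspa5, Pdia6 and Syvn1. Hspa5 and Syvn1 differed by 0.58 ± 0.12 and 0.83 ± 0.11 (SE), without overlap of the groups. Dnajc3, Hsp90b1 and Pdia6 differed by 0.21 ± 0.13, 0.27 ± 0.29 and 0.16 ± 0.12 (SE), with overlapping groups. Among 57 promoters of related N-glycan genes listed further on, those of the lectin chaperones Calr and Canx held it. Calr and Canx differed by 0.22 ± 0.09 and -0.10 ± 0.19 (SE). Whether the element goes with the size of a difference was not tested. TGACGTGG, the unfolded protein response element, whose CGTGG is CCACG on the other strand, was in 0 of the 32 promoters and in 222 of all promoters (0.676%). A second form of the ER stress element, ATTGG and CCACG 1 base apart, was added after the data were seen and was in 0 of the 32, against 12 of all (0.0365%). A match describes these letters in this window and shows no binding.

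The oligosaccharyltransferase, which moves the finished tree to the protein, differed unevenly across its 9 subunits among the 37 genes, with 8 higher and a median of 0.18. In 3 (33.3%) every Balb/cBy array was above every Balb/c array, against 4.42% of all probe sets. Ostc, a small subunit that links the complex to the protein-conducting channel, had the largest difference of all 37 genes. It read 10.44, 10.01 and 10.17 in Balb/c (mean 10.21 ± 0.22, SD, n = 3) and 11.20, 11.02 and 10.76 in Balb/cBy (10.99 ± 0.22, SD, n = 3). The lowest Balb/cBy array was 0.31 above the highest Balb/c array. The difference was 0.78 ± 0.15 (SE, 95% interval 0.44 to 1.13), 1.72-fold, with an unadjusted p of 0.000784, which ranked 44 among all probe sets, and an adjusted p of 0.419 by limma. Without 1 array at a time it ran from 0.68 to 0.90.

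Dad1, a small membrane subunit that holds the complex together, read 9.60, 9.29 and 9.34 in Balb/c and 9.83, 10.02 and 9.68 in Balb/cBy. The groups were separate by 0.08. The difference of Dad1 was 0.43 ± 0.13 (SE, unadjusted p = 0.00865, adjusted p = 0.999 by limma), 1.35-fold. Rpn1, a ribophorin near the ribosome and channel, read 10.32, 10.21 and 10.11 in Balb/c and 10.39, 10.51 and 10.34 in Balb/cBy. Its groups were separate by 0.03, and the difference was 0.20 ± 0.10 (SE, unadjusted p = 0.0752).

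The catalytic subunits overlapped between groups. Stt3a, which glycosylates proteins as they enter the ER, read 11.53, 11.30 and 11.56 in Balb/c and 11.64, 11.69 and 11.46 in Balb/cBy, a difference of 0.14 ± 0.11 (SE, 95% interval -0.12 to 0.39) that was 0.05 without Balb/c replicate 2. Stt3b, which can act after entry, read 10.51, 10.04 and 10.56 in Balb/c and 10.62, 10.63 and 10.42 in Balb/cBy, a difference of 0.18 ± 0.15 (SE, 95% interval -0.16 to 0.53) that was 0.02 without Balb/c replicate 2. In both, Balb/cBy replicate 3 lay under Balb/c replicates 1 and 3, and Balb/c replicate 2 was the lowest array.

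The remaining subunits overlapped as well. Ddost, a core subunit, read 11.96, 11.76 and 11.39 in Balb/c and 11.88, 11.79 and 11.92 in Balb/cBy, a difference of 0.16 ± 0.15 (SE) that was 0.00 without Balb/c replicate 3. Rpn2, the other ribophorin, read 10.48, 10.36 and 10.33 in Balb/c and 10.50, 10.50 and 10.45 in Balb/cBy, a difference of 0.09 ± 0.09 (SE). For Rpn2, Balb/cBy replicates 1 and 2 were just above the Balb/c range and replicate 3 was within it. Magt1 and Tusc3 are the alternative thiol oxidoreductases of the Stt3b complex. Magt1 read 9.52, 9.13 and 9.59 in Balb/c and 9.71, 9.66 and 9.41 in Balb/cBy, a difference of 0.18 ± 0.15 (SE) that was 0.04 without Balb/c replicate 2. Tusc3 read 8.38, 8.33 and 8.17 in Balb/c and 7.88, 8.30 and 8.30 in Balb/cBy, a difference of -0.13 ± 0.13 (SE). Tusc3 was the single subunit below 0, its lowest array being Balb/cBy replicate 1, and its difference was 0.01 without that array.

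Within arrays, Ostc stood higher in Balb/cBy relative to each other subunit. The log2 difference between Ostc and another subunit was larger on every Balb/cBy array than on any Balb/c array for 8 of 8 subunits. It was larger by 0.35 for Dad1, 0.65 for Stt3a, 0.60 for Stt3b and 0.91 for Tusc3, the first and last being the extremes. The exact two-sided permutation p was 0.1 for each, the smallest that 3 against 3 arrays allow, and 0.100 adjusted over the 8. Ostc was picked for this comparison with its difference known, so the comparison describes uneven size and does not support it separately.

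**Figure D2:**
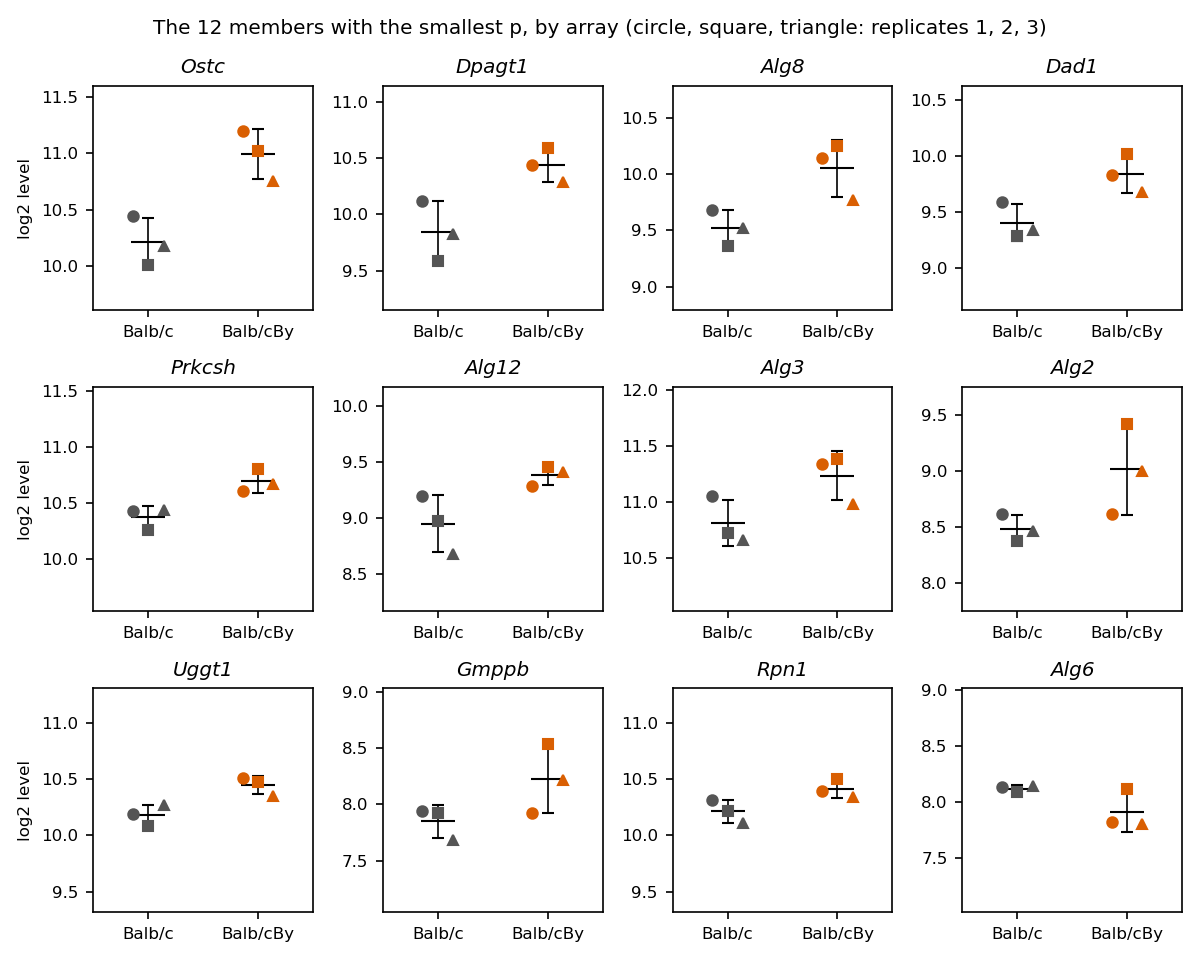
Log2 level by array for the 12 genes with the smallest p; circles, squares and triangles are replicates 1, 2 and 3, and the lines are means with SD (n = 3 per group). Each panel spans the same height of the log2 scale; Ostc is separate by 0.31, while Alg3, Gmppb and Alg6 overlap.

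Trimming and glycan-based quality control genes were all 5 higher, with a median of 0.19 and a range of 0.09 to 0.32. Prkcsh, the regulatory subunit of glucosidase II, which removes the inner glucoses, read 10.42, 10.26 and 10.44 in Balb/c and 10.60, 10.80 and 10.67 in Balb/cBy. The groups were separate by 0.17 and each had an SD of 0.10. The difference of Prkcsh was 0.32 ± 0.10 (SE, unadjusted p = 0.0127, adjusted p = 0.999 by limma), 1.25-fold. Ganab, the catalytic subunit of the same enzyme, read 10.44, 10.52 and 10.61 in Balb/c and 10.36, 10.76 and 10.71 in Balb/cBy. It had both the lowest and the highest of its 6 readings in Balb/cBy, and differed by 0.09 ± 0.13 (SE, 95% interval -0.20 to 0.38).

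Uggt1, the folding sensor that puts a glucose back on misfolded glycoproteins, read 10.19, 10.08 and 10.27 in Balb/c and 10.51, 10.48 and 10.35 in Balb/cBy. The groups were separate by 0.08. The difference of Uggt1 was 0.27 ± 0.10 (SE, unadjusted p = 0.0238, adjusted p = 0.999 by limma), 1.21-fold. Mogs, glucosidase I, which removes the outermost glucose, read 8.49, 8.44 and 8.36 in Balb/c and 8.35, 8.86 and 8.66 in Balb/cBy. Balb/cBy replicate 1 was the lowest of the 6 arrays and the other Balb/cBy arrays the highest, and the difference was 0.19 ± 0.13 (SE). Man1b1, the ER mannosidase that marks proteins for degradation, differed by 0.10 ± 0.11 (SE).

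The arrays did not share these differences evenly. Balb/cBy replicate 2 was the highest of the 6 arrays in 24 of the 37 genes and the lowest in 0. Balb/cBy replicate 1 was the highest in 3 and the lowest in 9. Among the Balb/c arrays, replicate 2 was the lowest of the 6 in 14 genes, replicate 3 in 11 and replicate 1 in 0. The mean over the 37 genes was 9.54, 9.38 and 9.43 in Balb/c and 9.55, 9.76 and 9.59 in Balb/cBy. By this mean Balb/cBy replicate 1 and Balb/c replicate 1 were nearly level, while the mean over all probe sets lay between 8.01 and 8.04 on the 6 arrays.

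In another 9 genes Balb/cBy replicates 2 and 3 read above every Balb/c array while Balb/cBy replicate 1 did not (24.3%, against 8.39% of all probe sets); this order was noticed after the values were seen. These were Dhdds, Dolk, Dolpp1, Gfpt1, Gmppb, Mpdu1, Mogs, Ganab and Man1b1: 3 genes of dolichol phosphate supply, 3 of sugar donors and 3 of trimming, and none of the oligosaccharyltransferase or of the assembly steps. The genes in which all 3 Balb/cBy arrays were above were Dpagt1, Alg2, Alg12, Alg8, Rpn1, Dad1, Ostc, Prkcsh and Uggt1.

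**Figure D3:**
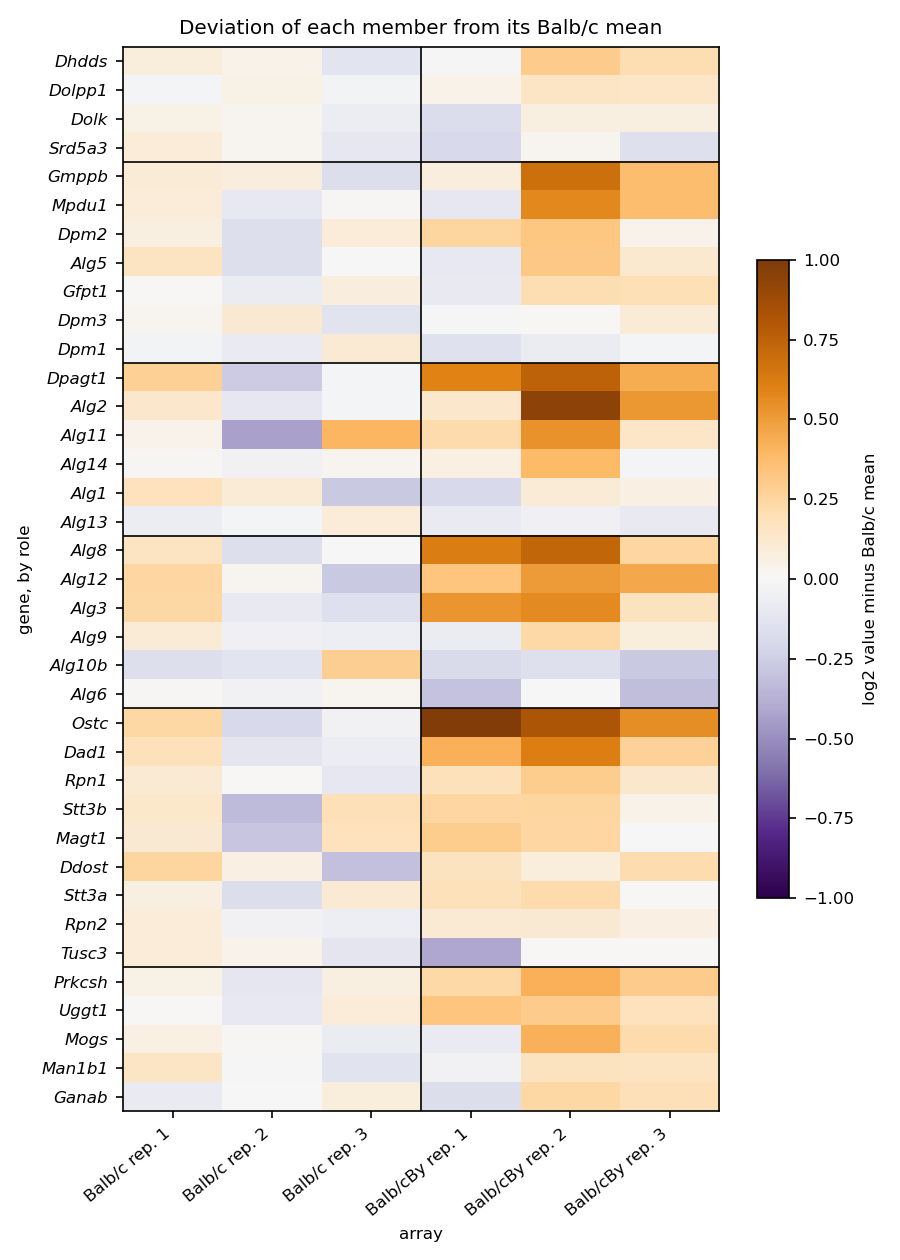
Log2 value of each gene on each array minus its Balb/c mean, with genes in rows grouped by role and arrays in columns; orange is above the Balb/c mean and purple below. Balb/cBy replicate 2 is the highest array in 24 of 37 rows, and Ostc, Dpagt1, Alg8 and Dad1 are above the Balb/c arrays on all 3 Balb/cBy arrays.

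ER stress genes, which the unfolded protein response is known to raise, were compared on the same arrays. They include chaperones and degradation factors, and also Xbp1, Atf4, Ddit3, Asns and Trib3, which are neither. Of 18 measured, 17 were higher (94.4%, against 49.0% of all probe sets), with a median difference of 0.41. An unadjusted p under 0.05 was found for 12 (66.7%), all higher, against 2.64% of all probe sets that were higher, and 0 passed the adjusted p. This list too was chosen with earlier results of these data known. Besides Creld2, the smallest p-values were those of Syvn1 at 0.83 ± 0.11, Hyou1, an ER chaperone, at 0.78 ± 0.11, Manf, a secreted ER stress protein, at 0.65 ± 0.09 and Sel1l, the partner of Syvn1, at 0.46 ± 0.09 (SE). Their mean deviation from the Balb/c mean was 0.53, 0.47 and 0.40 on Balb/cBy replicates 1 to 3, highest on replicate 1. For the 37 N-glycosylation genes it was 0.10, 0.31 and 0.14 on the same arrays, highest on replicate 2. Among the roles, the oligosaccharyltransferase, at 0.24, 0.29 and 0.14, had the highest deviation on Balb/cBy replicate 1, and dolichol phosphate supply the lowest, at -0.09. The difference in order between the lists rests on 3 arrays and was not tested.

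**Figure D4:**
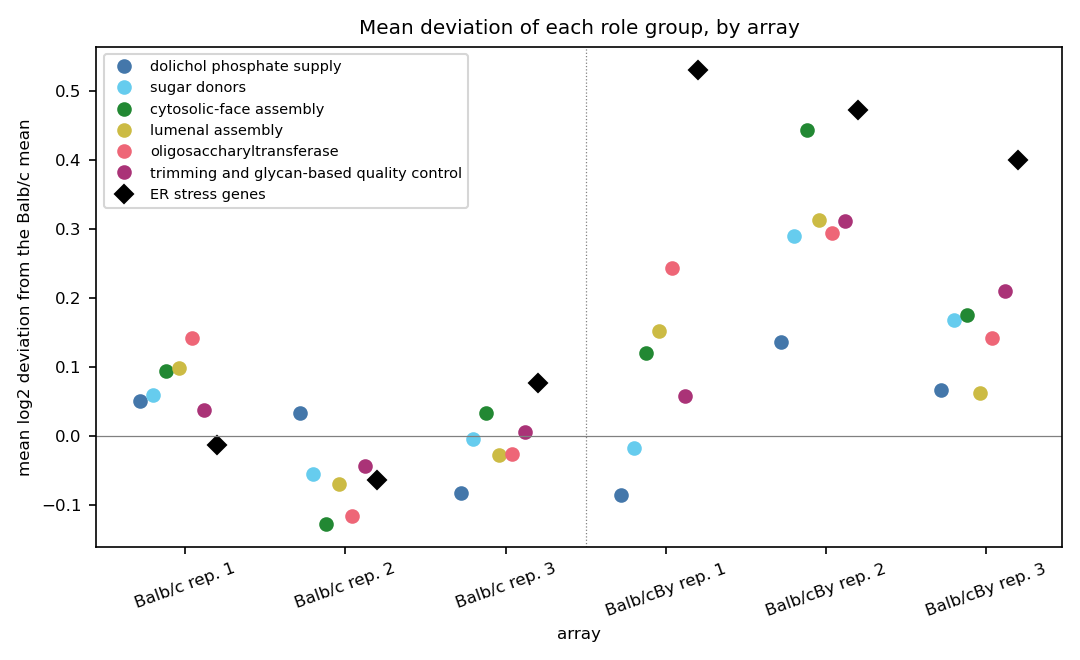
Mean log2 deviation from the Balb/c mean on each array, for the 6 roles of the N-glycosylation genes (circles) and for 18 ER stress genes (diamonds). The ER stress genes lie from 0.40 to 0.53 on the Balb/cBy arrays and from -0.06 to 0.08 on the Balb/c arrays. The roles lie from -0.09 to 0.44 on the Balb/cBy arrays. On the Balb/c arrays they lie from -0.13 to 0.14, so these ranges overlap.

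Genes around the pathway leaned the same way by less than its ER enzymes in their median, which was 0.07. Of 52 measured, 37 were higher (71.2%, against 49.0% of all probe sets). An unadjusted p under 0.05 was found for 4 (7.69%), all higher, against 2.64% of all probe sets that were higher, and 0 passed the adjusted p. The difference between these genes and the 37 was not tested. Each list below held 0 or 1 gene at that unadjusted p, too few to describe the list. Among 11 genes of sugar nucleotide and dolichol supply, 8 were higher and 1 had an unadjusted p under 0.05. Gmppa, the regulatory partner of Gmppb, differed by 0.35 ± 0.14 (SE), Pgm3 of UDP-GlcNAc synthesis by 0.31 ± 0.15 (SE) and Uap1 of the same route by 0.22 ± 0.13 (SE). All 4 small or associated oligosaccharyltransferase proteins were higher, with 0 at an unadjusted p under 0.05. Krtcap2, which like Ostc belongs to the channel-bound form of the complex, read 10.33, 10.49 and 10.10 in Balb/cBy, the last of which met the highest Balb/c array at 10.10. The difference of Krtcap2 was 0.27 ± 0.12 (SE). Mlec, malectin, and Tmem258 differed by 0.25 ± 0.17 and 0.13 ± 0.17 (SE).

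The list of the calnexin cycle, lectins and other genes acting on the glycans did not lean one way: 7 of 15 were higher, with a median of -0.02. It also held the Golgi mannosidases Man1a, Man1a2 and Man1c1 and the deglycosylase Ngly1, which are not of the cycle. These were lower, at -0.08, -0.25, -0.02 and -0.18, and were among the 8 lower genes. The count therefore does not describe the cycle and its lectins alone. Calr, the chaperone calreticulin, differed by 0.22 ± 0.09 (SE, unadjusted p = 0.0455, adjusted p = 0.999 by limma). Os9, a lectin that hands misfolded glycoproteins to degradation, was higher by 0.23 ± 0.11 (SE), and the difference of Man1a2, a Golgi mannosidase, was -0.25 ± 0.12 (SE). Of 17 genes of Golgi N-glycan processing, 14 were higher by a median of 0.09, and 1 had an unadjusted p under 0.05. That gene was B4galt1, a galactosyltransferase, at 0.50 ± 0.19 (SE), and the sialyltransferases St3gal4 and St6gal1 followed at 0.30 ± 0.15 and 0.29 ± 0.15 (SE). Of 5 genes outside N-glycosylation that use dolichol phosphate mannose, 4 were higher and 1 had an unadjusted p under 0.05. Dpy19l1, a C-mannosyltransferase family member, differed by 0.41 ± 0.15 (SE), Pomt1 of O-mannosylation by 0.16 ± 0.10 (SE) and Pigm of GPI anchor synthesis by 0.15 ± 0.12 (SE).

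Secretory cells other than hepatocytes also make these enzymes, and in whole liver fewer cells of a type and less RNA per cell cannot be told apart. Plasma cell markers averaged 7.86 to 8.09 in Balb/c and 8.25 to 8.34 in Balb/cBy, without overlap. Of the 6 measured, 4 were higher, the median difference was 0.07, and the mean over all 6 arrays of Jchain, Mzb1 and Tnfrsf17 lay at or under the olfactory receptor level. Jchain, the joining chain of antibodies, read 7.09, 6.91 and 7.10 in Balb/c and 7.44, 8.31 and 8.70 in Balb/cBy, a difference of 1.12 ± 0.28 (SE, adjusted p = 0.974 by limma). The other 5 markers, set apart after the values were seen, averaged 8.01 to 8.32 in Balb/c and 8.24 to 8.42 in Balb/cBy and overlapped. Markers of T and NK cells went the other way, with 0 of 5 higher and averages of 7.42 to 7.51 in Balb/c and 7.35 to 7.40 in Balb/cBy, without overlap; Cd3g, Cd8a and Klrb1c lay at or under the olfactory receptor level.

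The other marker lists overlapped between groups. Averages in Balb/c and Balb/cBy were 9.32 to 10.13 and 9.51 to 9.97 for Kupffer cells, with 3 of 6 markers higher and Marco at or under the olfactory receptor level. They were 9.49 to 9.81 and 9.65 to 9.99 for stellate cells, with 6 of 6 higher. Sinusoidal endothelial markers averaged 9.79 to 9.90 and 9.72 to 10.08, with 4 of 6 higher. Exocrine pancreas markers averaged 7.73 to 8.38 and 7.58 to 7.77, with 0 of 7 higher, and Cpb1, Cela3b and Prss2 at or under the olfactory receptor level. Cholangiocyte markers averaged 7.78 to 7.88 and 7.72 to 7.93, with 2 of 5 higher and Krt19, Krt7, Epcam and Cldn7 at or under that level. Neutrophil markers averaged 6.80 to 7.03 and 7.0 to 7.18, with 4 of 6 higher and S100a8, Ly6g, Retnlg, Mpo and Camp at or under that level. The part of these cells in the differences was not tested.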

How the data were processed

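The deposited table holds log2 values, 1 per probe set and array, made by the authors with RMA, per the submitters' processing notes. In general RMA corrects background, normalizes arrays by quantiles and sums up the probes of a set. The probe sets' genome build is not given in the sources used here. RMA compresses the low end of the scale, which makes differences between dim values too small. Of 41345 probe sets, 23521 carry 1 gene symbol and were tested, 1814 carry several and 16010 none.

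Groups follow the substrain in the labels. A linear model of substrain alone with empirical Bayes moderation (limma 3.58.1, R 4.3.3, two-sided, Benjamini-Hochberg over the 23521 probe sets, threshold 0.05) was fitted to all 6 arrays and was tested on simulated data. A gene with more than 1 probe set was read from the brightest. The number of arrays limits the precision, and 3 against 3 cannot give a permutation p under 0.1.

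The 37 genes and all lists were chosen with earlier results of these data known. Array values are given for the 12 genes with the smallest p and every oligosaccharyltransferase subunit among the 37. The 3 genes of each related list and 5 ER stress genes with the smallest p are named. Other ER stress and related genes are named where their promoter held the ER stress element, or to say what a list holds. Array values of Dolk, Mpdu1, Ganab, Mogs, Krtcap2 and Jchain were added after they were seen. Pigb, of the related lists, and Pdia4, of the ER stress genes, have no probe set under 1 symbol. Promoters come from RefSeq (GRCm38.p6). Alternatives were other moderation, array weights, a replicate block, renewed quantile normalization, median centring, brighter probe sets, averaged probe sets, every probe set and leaving out each array.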

Additional observations from a re-analysis of the deposited data

How the results depend on the processing

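Under the 16 alternatives, 0 of the 37 genes passed limma's adjusted p of 0.05, and the lowest adjusted p among them was 0.324, that of Ostc with the brighter probe sets alone. Among the related genes 0 passed as well. From 28 to 32 of the genes were higher; the brighter probe sets held 35 of the 37. The median difference ran from 0.09 to 0.21. The count at an unadjusted p under 0.05 was 6 without moderation, where 1.94% of all probe sets were higher at that p. It was 6 to 11 when 1 array was left out, where that share ran from 1.30% to 5.17%. The genes counted were higher in each fit, except Alg6, which was lower with array weights and without Balb/cBy replicate 2. Without the 2 arrays of lowest weight, a setting added after the data were seen, the count was 13 and the share 6.14%. Dpagt1, Alg8, Dad1, Ostc and Prkcsh kept such a p in all 16. The sign turned in at least 1 alternative for Dolk, Dpm1, Dpm3, Alg1, Ddost and Tusc3 and in none for the other 31. Over all probe sets, 31 passed the adjusted p with array weights, 16 without the 2 arrays of lowest weight and 0 to 4 when 1 array was left out (4 without Balb/cBy replicate 1 and 2 without replicate 3 of Balb/c). The cause was not tested.

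The labels do not say that the replicate numbers pair the samples. Deviations of same-numbered arrays from their group means correlated at -0.32, -0.19 and -0.23, and those of the other pairs at 0.01 to 0.22. Deviations within a group of 3 sum to 0, so these values cannot show whether the numbers mark a litter, day or batch. With the replicate number as a block, 9 of the 37 genes had an unadjusted p under 0.05, 0 passed the adjusted p, and the median difference was 0.16. Across all probe sets 0 passed with the block. Low signal limits Alg6, Alg13 and Dpm3, whose means over all 6 arrays lay under the olfactory receptor level.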

Other observations

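Some of these genes sit beside genes of the other lists. In the RefSeq gene order, Dpm3 neighbours Krtcap2, and the pair differed by 0.03 ± 0.10 and 0.27 ± 0.12 (SE). Srd5a3 lies between Kdr, a receptor of sinusoidal endothelium, and Tmem165, a Golgi ion transporter; the differences were -0.11 ± 0.10, -0.23 ± 0.13 and -0.08 ± 0.11 (SE). With Alg12 and Creld2 these make 4 neighbouring pairs.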
